A study of Mus musculus with 12 samples.

Results

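The melanosome biogenesis and transport machinery is taken here as 36 named genes that build the melanosome, load it and move it: subunits of the BLOC, AP-3, AP-1 and HOPS complexes, Rab GTPases with their effectors and motor, and carriers and cargo of the same route. Members were found by gene symbol. Of the 36, 34 were among the 23022 listed genes, and all 34 were among the 11663 genes with enough signal to test; *Bloc1s2* and *Vamp7* were not analysed here. RNA-seq values came from 12 libraries of mouse B16-F10 melanoma cells, 3 for each of 4 conditions: NTC and DKO cells, each untreated or treated with IFNγ. DKO cells were made by targeting *Mbnl1* and *Mbnl2*, which code for muscleblind-like RNA-binding proteins, and NTC cells are the control (no template control in the sample labels, non-targeting control in the study). Both came from a Cas9-expressing line grown from a single cell and received paired guide RNAs by lentivirus. The DKO cells are a polyclonal population in which some protein of the targeted genes was left, so edited and unedited alleles are measured together. The labels distinguish replicates by number alone, so p-values measure only the spread between these samples, which may be technical.

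The values are TPM, a length-corrected measure of what part of a library's transcripts each gene makes up, from which read depth cannot be recovered. Sums over the listed genes ran from 844185 to 874612 TPM for NTC and, lower, from 805782 to 827191 TPM for DKO libraries. *Mbnl1* measured 56.8, 57 and 55.6 TPM across NTC libraries against 41.3, 41.1 and 44 TPM across DKO libraries when untreated, and 60.5, 63.9 and 63.3 TPM against 44.9, 42.7 and 47.5 TPM when treated. All DKO libraries lay under all NTC libraries, with log2 differences of −0.41 (SE 0.0489, adjusted p = 2.54e-05) without IFNγ and −0.47 (SE 0.0489, adjusted p = 8.12e-06) with it. *Mbnl2* measured 107, 99.2 and 101 TPM across NTC libraries against 87.2, 90.2 and 89.996 TPM across DKO libraries when untreated, and 107, 104 and 107 TPM against 88.9, 83.9 and 98 TPM when treated. These groups did not overlap either, and the differences were −0.20 (SE 0.0527, adjusted p = 0.00937) and −0.23 (SE 0.0527, adjusted p = 0.00308). The related gene *Mbnl3*, which was not targeted, was called higher in DKO cells in both comparisons. The cells carried melanocyte RNA: none of 11 melanocyte markers was at 0 in every library, and the most abundant, *Tyrp1*, averaged 5245 TPM. All 6 keratinocyte markers, 5 of 10 leukocyte markers (*Lck* highest, at 2.76 TPM) and 4 of 5 endothelial markers (*Pecam1* highest, at 0.552 TPM) were at 0 in every library. Of 7 fibroblast markers, *Dcn* and *Lum* were at 0 in every library and *Postn* was highest at a mean of 7.68 TPM. The fibroblast sum moved with genotype: it was 7.18, 7.77 and 6.57 TPM across untreated and 6.4, 6.05 and 6.6 TPM across treated NTC libraries, and 13.3, 13.8 and 16 TPM across untreated and 15.4, 14 and 15.9 TPM across treated DKO libraries. The summed melanocyte markers, all of which are also in the pigment list used for comparison, went the other way, from 18733, 17751 and 17908 TPM and, treated, 19277, 19408 and 19947 TPM in NTC to 11850, 12047 and 12204 TPM and, treated, 13246, 13117 and 13232 TPM in DKO libraries. The leukocyte sum was 4.07, 4.11 and 3.52 TPM across NTC and 3.25, 3.81 and 3.37 TPM across DKO libraries without IFNγ, which overlapped, and 5.85, 6.35 and 5.09 TPM against 3.75, 4.19 and 3.37 TPM with it, which did not. The part of these shifts in the results was not tested, and in bulk RNA fewer cells of a type and less RNA per cell cannot be told apart.

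Melanosomes are organelles related to lysosomes in which pigment cells make and store melanin. Adaptor complexes (AP-3 and AP-1), BLOC complexes and the GTPases Rab32 and Rab38 carry melanin enzymes and transporters from endosomes to the maturing organelle, HOPS tethers membranes before they fuse, and Rab27a, melanophilin and myosin Va hold finished melanosomes on actin near the cell edge. Inherited loss of BLOC or AP-3 subunits gives the pale coat of Hermansky-Pudlak syndrome models in mice, and loss of *Rab27a*, *Mlph* or *Myo5a* gives a diluted coat because melanosomes are not held at the periphery.

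All 34 members were at 1 TPM or more in every library, the lowest value being 3.85 TPM (*Bloc1s3*). Their median level in untreated NTC libraries was 45.01 TPM, against 20.2 TPM over all tested genes. *Cd63* was the most abundant at 938 ± 34.5 TPM (SD, n = 3), followed by *Rab38* at 527 ± 21.3 TPM. *Dtnbp1* (162 ± 3.24 TPM), *Mlph* (161 ± 2.53 TPM) and *Rab27a* (158 ± 6.46 TPM) came next and lay within their spread of each other. *Myo5a* followed at 143 ± 5.07 TPM, and from *Ap3d1* (80.4 ± 2.72 TPM) downward the levels ran down in small steps. Neighbours there that lay closer together than the larger of their SDs were *Ap3s1*, *Stx12*, *Ap1m1*, *Bloc1s1*, *Snapin* and *Ap3s2* in a row, *Vps41* and *Vps11*, *Sytl2* and *Hps3*, *Rab32* and *Ap1g1*, *Hps4* and *Vps18*, and *Rabggta* and *Bloc1s3*. The subunits of a complex were not at 1 level: in HOPS they ran from *Vps16* at 50.3 ± 3.92 TPM to *Vps18* at 14.7 ± 0.344 TPM, and in BLOC-2 from *Hps3* at 41.1 ± 2.58 TPM to *Hps6* at 4.83 ± 0.797 TPM, the lowest of all members. The heat map by library shows where these levels moved with genotype.

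**Figure D1:**
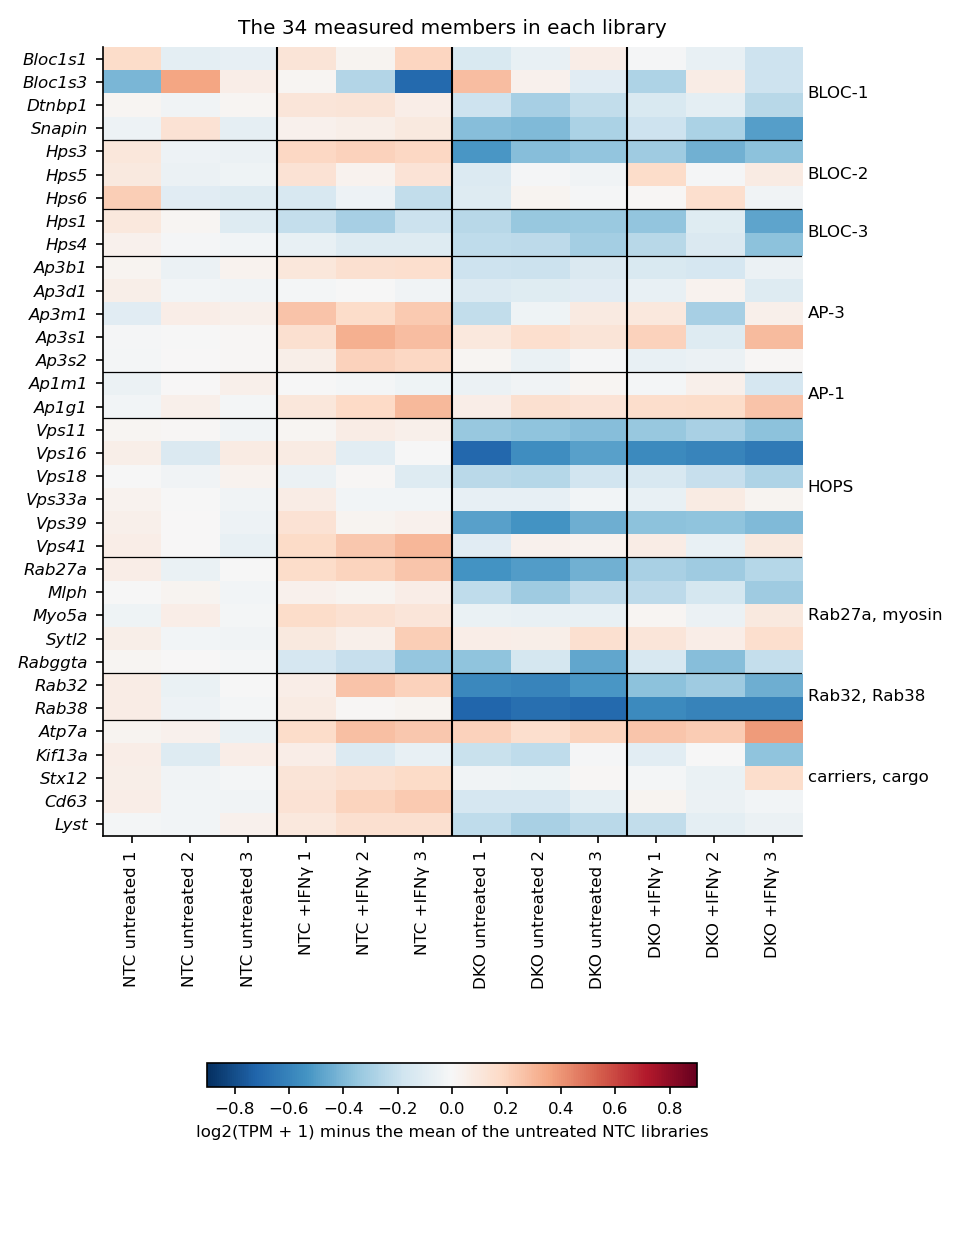
Each square is log2(TPM + 1) of 1 member in 1 of the 12 libraries minus the member's mean over untreated NTC libraries, with members grouped by role and libraries by condition. Values run from −0.71 to 0.38, and apart from Bloc1s3, whose replicates scatter in every condition, the lowest squares lie in the DKO libraries, for example those of Rab38, Rab32 and Vps16.

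The comparison of DKO with NTC cells asks which members move when both muscleblind genes are targeted, first without and then with IFNγ. Differences are on the log2(TPM + 1) scale, on which the change of a gene near 1 TPM is understated, and each was tested with limma over all 11663 genes with Benjamini-Hochberg adjustment. Without IFNγ, 17 of the 34 members were lower in DKO cells (50%; 19.4% of all tested genes were) and 1 was higher (2.94%; 17% of all genes). With IFNγ, 19 were lower (55.9%, against 23.9% of all genes) and none was higher (against 19.5% of all genes); at an unadjusted p under 0.05 limma gave 20 lower (58.8%, against 27.7% of all genes) and 0 higher (against 23.1%). The median log2 difference of the members was −0.14 without IFNγ, where that of all tested genes was −0.0055, and −0.17 with IFNγ, where that of all genes was −0.013. The genotype comparisons at the 2 treatments share no library. Both set DKO against NTC cells, though, and take their spread from 1 fit of all libraries, so they are not independent. Across all tested genes their differences correlated (Pearson r = 0.81). In both comparisons 14 members (41.2%) were lower, against 15% of all tested genes. In 16 members (47.1%, against 18.8% of all genes) no DKO library reached the lowest NTC library at either treatment: those 14, *Hps4* and *Myo5a*. Of the 34 members, 11 were called in neither comparison (32.4%, against 47.9% of all genes).

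The split between higher and lower genes depends on how DKO libraries are scaled against NTC libraries. Of all genes called without IFNγ, 46.7% were higher in DKO cells as deposited, 60.7% when libraries were given equal totals over the listed genes and 49.6% with median-ratio scaling. With IFNγ these shares were 44.9%, 65.3% and 49.5%. Under equal totals 2 members were higher and 16 lower without IFNγ (5.88% and 47.1%, against 22.8% and 14.8% of all genes), and 1 was higher and 13 lower with it (2.94% and 38.2%, against 28.1% and 15% of all genes). Their medians were then −0.089 and −0.087, and those of all genes 0.039 and 0.066. With median-ratio scaling 1 member was higher (2.94%, against 18.1% of all genes) and 17 were lower (50%, against 18.5%) without IFNγ, and 0 were higher (against 21.2%) and 16 lower (47.1%, against 21.6%) with it.

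**Figure D2:**
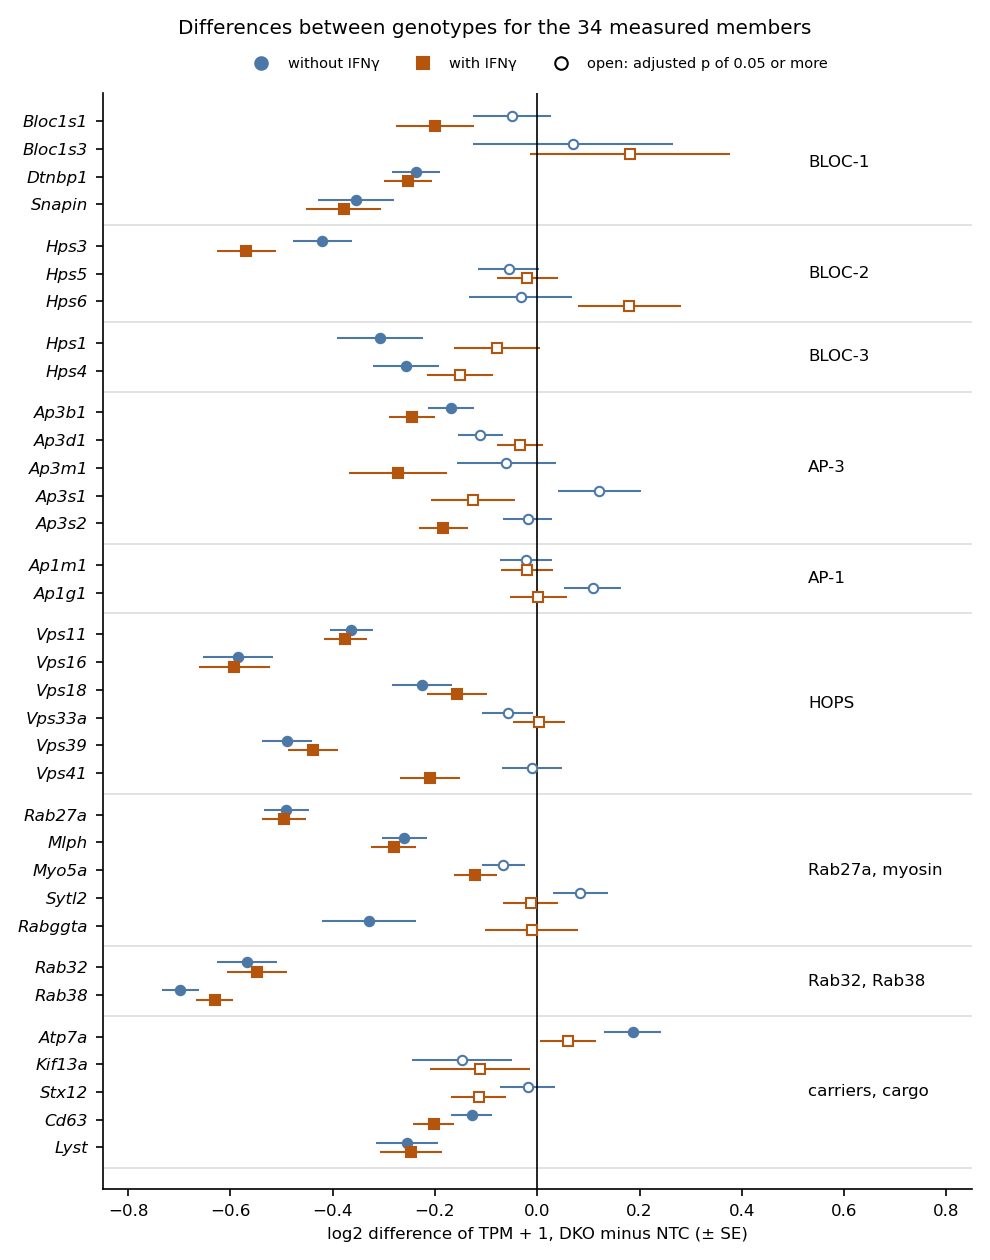
Points give the log2 difference (DKO minus NTC) of the 34 members by role, without and with IFNγ, with bars of 1 standard error; filled points have an adjusted p under 0.05. Rab38 lies farthest to the left at −0.70 and −0.63, and Atp7a, at 0.19 without IFNγ, is the only filled point to the right of 0.

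The sequences at the start of the members' genes were looked at because so many members were lower together. RefSeq promoters of assembly GRCm38.p6 were found for 27 of the 34 members (31 promoters, since a gene can have more than 1 start), and they were searched for CACGTG and CATGTG, a pair of E-box sequences that transcription factors of the MITF and TFE family can bind. CACGTG is its own reverse complement, CATGTG was also searched as CACATG, and a CACGTG and a CATGTG cannot overlap each other. CACGTG was in promoters of 10 of the 27 members (37%), in 12.1% of tested genes with a promoter entry and in 8.09% of all genes with one. CATGTG was in 3 of the 27 (11.1%), against 10.5% of tested and 15.9% of all genes, whereas 7 of 8 pigment genes with an entry (87.5%) had it. Only 1 of those 8 (12.5%) had CACGTG, close to the share of tested genes. Of the 10 members with an entry that were lower in both genotype comparisons, 4 had CACGTG (*Hps3*, *Mlph*, *Rab27a*, *Vps16*). Among the 17 others, 6 had it. Of these, *Bloc1s1* and *Hps1* were lower in 1 comparison, *Atp7a* was higher in 1, and *Bloc1s3*, *Hps5* and *Vps33a* were called in neither. A match is a description of the letters and not a binding site. The promoters printed here were chosen after the values were seen: *Vps16* (chr2:130424070-130424369, plus strand), *Hps3* (chr3:20035261-20035560, minus strand) and *Mlph* (chr1:90914850-90915149, plus strand) were lower in DKO cells and have 1 CACGTG each, and *Vps33a* (chr5:123572966-123573265, minus strand), called in neither comparison, has 2. Each is written from 5′ to 3′ on the strand of the gene, with CACGTG in capitals.
Vps16: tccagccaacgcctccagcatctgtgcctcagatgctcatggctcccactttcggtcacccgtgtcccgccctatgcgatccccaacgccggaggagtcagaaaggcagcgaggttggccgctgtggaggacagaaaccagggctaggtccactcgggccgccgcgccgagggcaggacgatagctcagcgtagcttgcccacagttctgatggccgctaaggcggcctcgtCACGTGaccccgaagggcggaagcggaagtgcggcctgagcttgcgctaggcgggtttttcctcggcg
Hps3: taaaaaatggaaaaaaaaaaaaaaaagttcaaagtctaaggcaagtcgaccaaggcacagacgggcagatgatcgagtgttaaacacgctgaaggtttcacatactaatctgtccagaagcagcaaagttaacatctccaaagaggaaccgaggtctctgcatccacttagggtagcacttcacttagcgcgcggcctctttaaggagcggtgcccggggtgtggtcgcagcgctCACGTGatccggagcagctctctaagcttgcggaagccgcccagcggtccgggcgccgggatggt
Mlph: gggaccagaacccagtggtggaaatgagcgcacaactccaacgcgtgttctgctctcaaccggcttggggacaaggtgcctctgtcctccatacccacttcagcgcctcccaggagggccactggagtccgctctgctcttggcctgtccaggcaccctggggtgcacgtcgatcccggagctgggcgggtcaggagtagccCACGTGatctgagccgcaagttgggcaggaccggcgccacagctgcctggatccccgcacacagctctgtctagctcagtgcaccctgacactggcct
Vps33a: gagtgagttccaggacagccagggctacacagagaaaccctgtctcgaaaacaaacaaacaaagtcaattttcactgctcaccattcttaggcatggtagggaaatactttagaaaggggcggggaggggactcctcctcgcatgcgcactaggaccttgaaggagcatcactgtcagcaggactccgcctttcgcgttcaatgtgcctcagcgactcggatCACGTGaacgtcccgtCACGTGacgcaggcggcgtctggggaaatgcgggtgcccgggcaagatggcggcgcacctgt

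Rab32 and Rab38 are paired GTPases that direct tyrosinase and related cargo to the melanosome, and their medians of −0.63 without and −0.59 with IFNγ were the largest of any role. *Rab38* measured 551, 509.9 and 521 TPM across NTC libraries against 321, 328 and 324 TPM across DKO libraries when untreated, and 556, 531 and 537 TPM against 354, 347 and 347 TPM when treated. All 6 DKO libraries were below all 6 NTC libraries. *Rab38* differed by −0.70 (SE 0.0362, adjusted p = 2.36e-08) without IFNγ and −0.63 (SE 0.0362, adjusted p = 4.52e-08) with it, with mean TPM 38.4% and 35.5% lower (ENSMUSG00000030559, chr7:88430273-88491572, plus strand; this and later gene coordinates are on GRCm38). It was the largest difference of any member in either comparison. *Rab32* measured 39.4, 36.1 and 37.5 TPM across NTC libraries against 24.8, 24.6 and 25.8 TPM across DKO libraries when untreated, and 39.2, 45 and 43.5 TPM against 28.9, 29.9 and 27.5 TPM when treated. The groups did not overlap, and treated DKO libraries lay below untreated NTC libraries as well. *Rab32* differed by −0.57 (SE 0.0583, adjusted p = 8.12e-06) without IFNγ and −0.55 (SE 0.0583, adjusted p = 9.17e-06) with it, with mean TPM 33.4% and 32.4% lower (ENSMUSG00000019832, chr10:10545002-10558265, minus strand). For each of the 14 members lower in both comparisons, the exact permutation test within treatments gave a two-sided p of 0.005, the smallest that its 400 arrangements can give, which follows from groups that do not overlap.

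HOPS, the tether that brings endosomes and lysosome-related organelles together for fusion, has 6 subunits among the members. Of them, 4 were lower without IFNγ (66.7%, against 19.4% of all tested genes) and 5 with it (83.3%, against 23.9%). The complex has a core shared with the early endosomal tether CORVET (Vps11, Vps16, Vps18 and Vps33a) and a pair of subunits of its own (Vps39 and Vps41). *Vps16* measured 52.1, 45.8 and 52.9 TPM across NTC libraries against 30.4, 33.7 and 35.4 TPM across DKO libraries when untreated, and 52.9, 46.8 and 49.9 TPM against 33.3, 32.9 and 31.9 TPM when treated. DKO libraries were the lower ones at both treatments, with a gap to the lowest NTC library. *Vps16* differed by −0.58 (SE 0.0689, adjusted p = 2.52e-05) without IFNγ and −0.59 (SE 0.0689, adjusted p = 1.99e-05) with it (ENSMUSG00000027411, chr2:130424339-130444269, plus strand). Of its exonic bases, 2.92% overlap *Pced1a* on the other strand, which unstranded libraries cannot separate. *Vps11* measured 45.1, 45 and 43.6 TPM across NTC libraries against 34.9, 34.4 and 33.8 TPM across DKO libraries when untreated, and 45.1, 46.6 and 46 TPM against 35, 36.2 and 34.3 TPM when treated. Replicates were close together and all DKO values lay under all NTC values. *Vps11* differed by −0.36 (SE 0.0418, adjusted p = 2.03e-05) without IFNγ and −0.38 (SE 0.0418, adjusted p = 1.37e-05) with it (ENSMUSG00000032127, chr9:44347749-44361670, minus strand).

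*Vps39* measured 36.8, 35.8 and 34.5 TPM across NTC libraries against 25.1, 24.2 and 26.1 TPM across DKO libraries when untreated, and 39.1, 36.2 and 36.7 TPM against 27.4, 27.6 and 26.8 TPM when treated. The groups did not overlap. *Vps39* differed by −0.49 (SE 0.0491, adjusted p = 6.71e-06) without IFNγ and −0.44 (SE 0.0491, adjusted p = 1.45e-05) with it (ENSMUSG00000027291, chr2:120316461-120353137, minus strand). *Vps18* measured 14.7, 14.4 and 15.1 TPM across NTC libraries against 12.3, 12.2 and 12.9 TPM across DKO libraries when untreated, and 14.2, 14.8 and 13.5 TPM against 13.2, 12.6 and 12 TPM when treated. The DKO libraries were lower at both treatments, by a narrow margin with IFNγ. *Vps18* differed by −0.23 (SE 0.0592, adjusted p = 0.00911) without IFNγ and −0.16 (SE 0.0592, adjusted p = 0.0466) with it (ENSMUSG00000034216, chr2:119288740-119298453, plus strand). The call for *Vps18* with IFNγ rests on single libraries and on scaling: its adjusted p was between 0.0549 and 0.156 without any 1 of 10 libraries (the 6 untreated ones, treated NTC replicates 1 and 2 and treated DKO replicates 2 and 3), with differences between −0.16 and −0.12, and the call was also lost with no filter on low values, in the 6 treated libraries alone, with median-ratio scaling and under equal totals, −0.076 (adjusted p = 0.318). With the trend of GC content and length removed the value was larger, −0.33 (adjusted p = 0.00108).

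The other HOPS subunits were not called in both comparisons. *Vps33a*, which codes for the Sec1/Munc18-type subunit that binds SNAREs, measured 35.1, 34.2 and 33.5 TPM across untreated NTC and 32.5, 32.6 and 33.6 TPM across untreated DKO libraries, and the groups overlapped (−0.057, adjusted p = 0.4). With IFNγ its difference was 0.0033 (SE 0.05, adjusted p = 0.966). *Vps41* was not called without IFNγ (−0.011, adjusted p = 0.906) and was lower with it (−0.21, adjusted p = 0.0112), a call lost under equal totals at −0.12 (adjusted p = 0.083); with the trend of GC content and length removed its value was −0.11 (adjusted p = 0.0485). The difference between these 2 effects of *Vps41* was −0.20 (adjusted p = 0.42), so a dependence on IFNγ was not shown.

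Rab27a recruits melanophilin, which in turn binds myosin Va. In each comparison 3 of the 5 transport members were lower (60%, against 19.4% of all tested genes without IFNγ and 23.9% with it). *Rab27a* measured 165, 152 and 158 TPM across NTC libraries against 109, 111 and 117 TPM across DKO libraries when untreated, and 177, 182 and 188 TPM against 129, 126 and 132 TPM when treated. All DKO libraries lay below all NTC libraries, treated or not. *Rab27a* differed by −0.49 (SE 0.0433, adjusted p = 2.27e-06) without IFNγ and −0.49 (SE 0.0433, adjusted p = 1.93e-06) with it, or mean TPM 29% and 29.2% lower (ENSMUSG00000032202, chr9:73044854-73097629, plus strand). *Mlph* measured 161, 164 and 159 TPM across NTC libraries against 138, 129 and 137 TPM across DKO libraries when untreated, and 166, 164 and 168 TPM against 137, 144 and 129 TPM when treated. NTC values were tightly grouped and none was as low as the highest DKO value. *Mlph* differed by −0.26 (SE 0.0443, adjusted p = 0.000501) without IFNγ and −0.28 (SE 0.0443, adjusted p = 0.000239) with it (ENSMUSG00000026303, chr1:90915085-90951142, plus strand).

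Myosin Va is the motor of this group. Its gene *Myo5a* (ENSMUSG00000034593, chr9:75071015-75223688, plus strand) had DKO libraries below NTC libraries at both treatments, with differences of −0.066 (SE 0.0425, adjusted p = 0.249) and −0.12 (SE 0.0425, adjusted p = 0.0343). The second call failed without treated NTC replicate 1, −0.11 (adjusted p = 0.0989), or 2, −0.12 (adjusted p = 0.0737), and without treated DKO replicate 1, −0.12 (adjusted p = 0.0749), or 2, −0.085 (adjusted p = 0.125). It was also lost in the 6 treated libraries alone, with median-ratio scaling, with the trend of GC content and length removed and under equal totals, −0.035 (adjusted p = 0.525). *Sytl2*, which codes for a Rab27 effector, was at 0.084 (adjusted p = 0.251) and −0.013 (adjusted p = 0.865), and its groups overlapped.

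*Rabggta*, the alpha subunit of the transferase that attaches the lipid anchors of Rab proteins, was called in only 1 of the comparisons. *Rabggta* measured 8.35, 8.26 and 8.11 TPM across NTC libraries against 6.2, 7.27 and 5.69 TPM across DKO libraries when untreated, and 7.32, 7 and 6.26 TPM against 7.37, 6.09 and 6.97 TPM when treated. Untreated DKO libraries were below untreated NTC libraries, and the treated groups overlapped. *Rabggta* differed by −0.33 (SE 0.0918, adjusted p = 0.0129) without IFNγ and −0.011 (SE 0.0918, adjusted p = 0.933) with it (ENSMUSG00000040472, chr14:55715416-55722263, minus strand). Without untreated DKO replicate 3 the first difference was −0.26 (adjusted p = 0.0632). The test of whether the genotype difference changed with IFNγ gave 0.32 (adjusted p = 0.417).

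**Figure D3:**
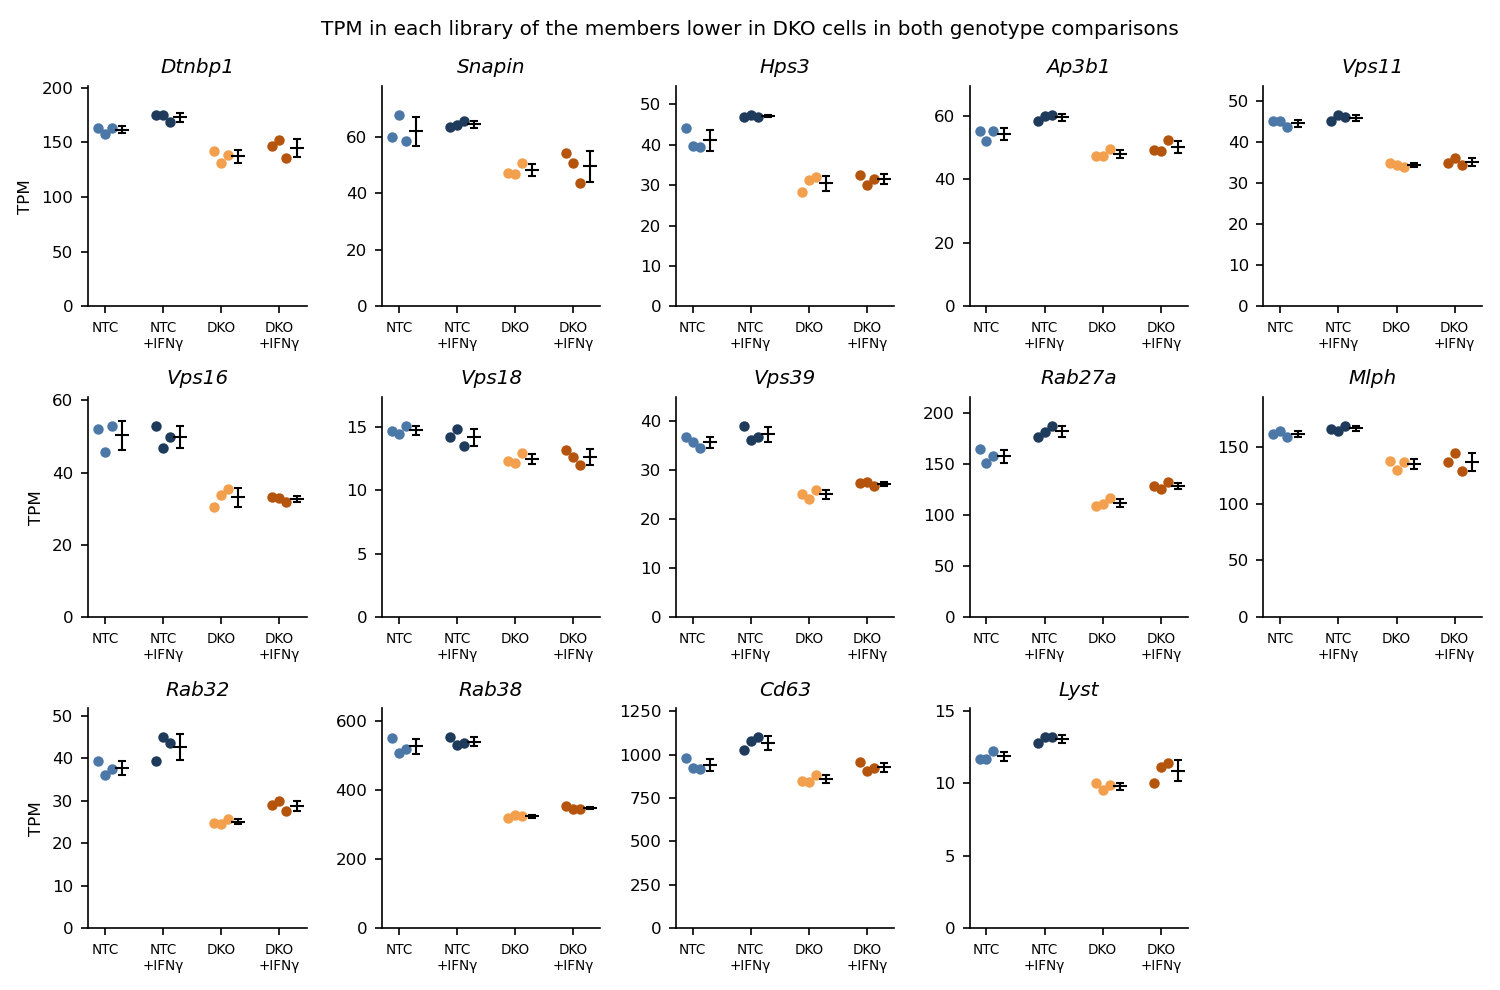
TPM of the 14 members lower in both genotype comparisons, 1 panel each, with 1 point per library, a line at the mean of 3 and bars of 1 SD. In every panel the DKO points lie below the NTC points of the same treatment, for example in Rab38, where the untreated means are 527 and 325 TPM.

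BLOC-1 helps form tubular carriers that leave endosomes for the melanosome. Of its 4 tested members, 2 were lower without IFNγ (50%, against 19.4% of all tested genes) and 3 with it (75%, against 23.9%). *Dtnbp1* measured 164, 158 and 164 TPM across NTC libraries against 142, 131 and 138 TPM across DKO libraries when untreated, and 175, 175 and 169 TPM against 147, 152 and 136 TPM when treated. DKO values formed a separate lower group at both treatments. *Dtnbp1* differed by −0.24 (SE 0.0465, adjusted p = 0.00141) without IFNγ and −0.25 (SE 0.0465, adjusted p = 0.000751) with it (ENSMUSG00000057531, chr13:44922075-45002147, minus strand; it codes for dysbindin). Under equal totals the second value was −0.17 (adjusted p = 0.0139). *Snapin* measured 59.8, 67.8 and 58.3 TPM across NTC libraries against 47.3, 46.7 and 50.6 TPM across DKO libraries when untreated, and 63.4, 64 and 65.6 TPM against 54.2, 50.7 and 43.6 TPM when treated. The groups did not overlap, with a wider spread among untreated NTC replicates than for *Dtnbp1*. *Snapin* differed by −0.35 (SE 0.0741, adjusted p = 0.00214) without IFNγ and −0.38 (SE 0.0741, adjusted p = 0.00117) with it (ENSMUSG00000001018, chr3:90488026-90491033, minus strand). *Snapin* shares 354 exonic bases (15.5%) with *Ilf2* on the other strand, a gene averaging 155 TPM, and reads of the overlap cannot be assigned.

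*Bloc1s1* was not called without IFNγ (−0.049, adjusted p = 0.656) and was lower with it (−0.20, adjusted p = 0.049), with a difference between the effects of −0.15 (adjusted p = 0.576). The call was lost with a pseudocount of 0.1, with no filter on low values, with median-ratio scaling and under equal totals, −0.11 (adjusted p = 0.234), and was larger with the trend of GC content and length removed, −0.33 (adjusted p = 0.00799). It failed as well without treated NTC replicate 1 (adjusted p = 0.0952) or 3 (0.164), treated DKO replicate 2 (0.0765) or 3 (0.158), untreated NTC replicate 3 (0.0538) and untreated DKO replicate 2 (0.0599), at differences between −0.21 and −0.15. Of the exonic bases of *Bloc1s1*, 55.9% are shared with *Rdh5* on the same strand. *Bloc1s3* was called in neither comparison, at 0.071 (adjusted p = 0.813) and 0.18 (adjusted p = 0.483).

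In BLOC-2, which directs those carriers to melanosomes, *Hps3* was lower in both comparisons and its partners were called in neither. *Hps3* measured 44.1, 39.7 and 39.6 TPM across NTC libraries against 28.3, 31.2 and 31.9 TPM across DKO libraries when untreated, and 46.9, 47.5 and 46.9 TPM against 32.6, 30.1 and 31.6 TPM when treated. All DKO libraries were below all NTC libraries, and treated and untreated DKO libraries covered much the same range. *Hps3* differed by −0.42 (SE 0.058, adjusted p = 9.74e-05) without IFNγ and −0.57 (SE 0.058, adjusted p = 6.52e-06) with it, or mean TPM 25.9% and 33.2% lower (ENSMUSG00000027615, chr3:19995945-20035315, minus strand). *Hps5* was at −0.056 (adjusted p = 0.501) without IFNγ and −0.019 (adjusted p = 0.818) with it. *Hps6* was at −0.033 (adjusted p = 0.832) and 0.18 (adjusted p = 0.168).

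BLOC-3 is the exchange factor that activates Rab32 and Rab38. Both of its subunits were lower in DKO cells without IFNγ (100%, against 19.4% of all tested genes), and neither was called with it. *Hps1* measured 23.4, 22.1 and 20.1 TPM across NTC libraries against 18.2, 17 and 17.1 TPM across DKO libraries when untreated, and 18.7, 17.6 and 19 TPM against 16.8, 20.1 and 15.5 TPM when treated. The untreated groups did not overlap and the treated groups did. *Hps1* differed by −0.31 (SE 0.084, adjusted p = 0.0113) without IFNγ and −0.078 (SE 0.084, adjusted p = 0.478) with it (ENSMUSG00000025188, chr19:42755105-42779978, minus strand). The difference between these effects was 0.23 (adjusted p = 0.463). Without untreated NTC replicate 1 the first value was −0.26 (adjusted p = 0.0524), and with the trend of GC content and length removed the second was −0.23 (adjusted p = 0.0153) and past the threshold. *Hps4* (ENSMUSG00000042328, chr5:112343083-112378414, plus strand) was at −0.26 (SE 0.0643, adjusted p = 0.00696) and −0.15 (SE 0.0643, adjusted p = 0.073), with a difference between them of 0.10 (adjusted p = 0.647). Its second value passed the threshold with that trend removed, −0.26 (adjusted p = 0.00128), and without treated DKO replicate 2, −0.21 (adjusted p = 0.0207).

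AP-3 is the adaptor that sorts tyrosinase at the endosome. Of its 5 tested subunits, 1 was lower without IFNγ (20%, near the 19.4% of all tested genes) and 3 with it (60%, against 23.9%). *Ap3b1* measured 55.2, 52.1 and 55.3 TPM across NTC libraries against 47.5, 47.3 and 49.6 TPM across DKO libraries when untreated, and 58.2, 59.9 and 60.3 TPM against 49.2, 48.8 and 52.3 TPM when treated. DKO libraries were lower than NTC libraries at the same treatment, while 1 treated DKO library was above the lowest untreated NTC library. *Ap3b1* differed by −0.17 (SE 0.0449, adjusted p = 0.00965) without IFNγ and −0.24 (SE 0.0449, adjusted p = 0.000757) with it (ENSMUSG00000021686, chr13:94358960-94566317, plus strand). Its second value was −0.16 (adjusted p = 0.00815) under equal totals. *Ap3m1* measured 69.1, 77.5 and 76.8 TPM across NTC libraries against 63.6, 72.4 and 78.7 TPM across DKO libraries when untreated, and 89, 83.5 and 87.8 TPM against 79.7, 60.2 and 76.8 TPM when treated. The untreated groups overlapped and the treated groups did not. *Ap3m1* differed by −0.060 (SE 0.0961, adjusted p = 0.661) without IFNγ and −0.27 (SE 0.0961, adjusted p = 0.0351) with it (ENSMUSG00000021824, chr14:21031442-21052508, minus strand). The difference between the effects was −0.21 (adjusted p = 0.538).

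The call for *Ap3m1* failed without treated NTC replicate 1, −0.25 (adjusted p = 0.0863), 2, −0.30 (adjusted p = 0.0511), or 3, −0.26 (adjusted p = 0.0841), and without treated DKO replicate 2, −0.15 (adjusted p = 0.157). It was lost too with no filter on low values, in the 6 treated libraries alone, with the trend of GC content and length removed and under equal totals, −0.19 (adjusted p = 0.121). *Ap3m1* shares 29.8% of its exonic bases with *Vcl* on the other strand. *Ap3s2* was at −0.018 (adjusted p = 0.799) without IFNγ and lower with it at −0.18 (adjusted p = 0.00746), with a difference between them of −0.17 (adjusted p = 0.417) and a value of −0.098 (adjusted p = 0.106) under equal totals. *Ap3d1*, the large subunit mutated in the mocha mouse, was called in neither, at −0.11 (adjusted p = 0.066) and −0.034 (adjusted p = 0.567). Without IFNγ its value passed the threshold without treated DKO replicate 2 (adjusted p = 0.0324) or 3 (0.0448), in the 6 untreated libraries alone (0.0470) and with the trend of GC content and length removed, −0.15 (adjusted p = 0.00796), as did the value with IFNγ with that trend removed, −0.16 (adjusted p = 0.00536). *Ap3s1* was at 0.12 (adjusted p = 0.271) and −0.13 (adjusted p = 0.233), and its first value passed the threshold in the 6 untreated libraries alone, 0.12 (adjusted p = 0.0256), and with that trend removed, 0.17 (adjusted p = 0.0226). Of AP-1, which works beside AP-3 with the kinesin Kif13a, neither tested subunit was called: *Ap1m1* was at −0.022 and −0.020, and *Ap1g1* at 0.11, which passed under equal totals, 0.16 (adjusted p = 0.0385), and 0.0020. In both comparisons limma gave 0 of these 2 subunits at an unadjusted p under 0.05 too.

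Of the 5 tested carrier and cargo members, 4 had negative differences and 1 a positive one in each comparison. Without IFNγ 2 were lower and 1 was higher (40% and 20%, against 19.4% and 17% of all tested genes). With it 2 were lower (40%, against 23.9%) and 0 higher (against 19.5%). *Cd63* measured 978, 921 and 915 TPM across NTC libraries against 846, 845 and 883 TPM across DKO libraries when untreated, and 1024, 1076 and 1102 TPM against 955, 904 and 923 TPM when treated. *Cd63* codes for a tetraspanin that sorts Pmel in early melanosomes, and its DKO libraries were below NTC libraries of the same treatment while treated DKO overlapped untreated NTC libraries. *Cd63* differed by −0.13 (SE 0.0403, adjusted p = 0.0233) without IFNγ and −0.20 (SE 0.0403, adjusted p = 0.00131) with it (ENSMUSG00000025351, chr10:128900989-128912822, plus strand). The call without IFNγ failed without untreated NTC replicate 1, −0.098 (adjusted p = 0.1), and without untreated DKO replicate 1, −0.12 (adjusted p = 0.0742), or 2, −0.12 (adjusted p = 0.0784). It was lost also under equal totals, −0.078 (adjusted p = 0.107), and with the trend of GC content and length removed, −0.15 (adjusted p = 0.062). With IFNγ the call was kept, at −0.12 (adjusted p = 0.0194) under equal totals and −0.35 (adjusted p = 0.000533) with that trend removed.

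*Lyst* measured 11.7, 11.7 and 12.2 TPM across NTC libraries against 9.99, 9.51 and 9.86 TPM across DKO libraries when untreated, and 12.8, 13.2 and 13.2 TPM against 10.04, 11.1 and 11.4 TPM when treated. *Lyst*, mutated in the beige mouse, codes for a large protein that limits the size of lysosome-related organelles, and its groups did not overlap at either treatment. *Lyst* differed by −0.25 (SE 0.0609, adjusted p = 0.00534) without IFNγ and −0.25 (SE 0.0609, adjusted p = 0.0053) with it (ENSMUSG00000019726, chr13:13590397-13778803, plus strand). *Atp7a* (ENSMUSG00000033792, chrX:106027276-106124926, plus strand), the copper transporter that supplies tyrosinase, was the 1 member that rose in DKO cells, by 0.19 (SE 0.0549, adjusted p = 0.0172) without IFNγ, with 0.060 (SE 0.0549, adjusted p = 0.401) with it and a difference between them of −0.13 (adjusted p = 0.525). That call failed without untreated NTC replicate 3, 0.15 (adjusted p = 0.0764), and without untreated DKO replicate 1, 0.18 (adjusted p = 0.0538), or 3, 0.18 (adjusted p = 0.0543). Its value with IFNγ passed under equal totals, 0.14 (adjusted p = 0.0408), and with the trend of GC content and length removed, 0.13 (adjusted p = 0.0377). The kinesin gene *Kif13a* was called in neither comparison, at −0.15 (adjusted p = 0.265) and −0.11 (adjusted p = 0.381). The SNARE gene *Stx12* was not called either, at −0.019 (adjusted p = 0.817) and −0.11 (adjusted p = 0.102), although without treated DKO replicate 3 its second value was −0.18 (adjusted p = 0.00562).

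Whether the machinery fell with the pigment programme was read by setting the members beside 14 genes of melanin synthesis, the melanosome membrane and their regulators. Of these pigment genes, 12 were lower and 1 was higher in each comparison, and 11 (78.6%) were lower in both, against 14 of 34 members (41.2%) and 15% of all tested genes. In 12 pigment genes (85.7%, against 18.8% of all tested genes) all DKO libraries lay below NTC libraries at both treatments. The pigment median was −0.53 without IFNγ and −0.55 with it, where the members had −0.14 and −0.17. The largest pigment differences, by the larger of the values at the 2 treatments, were those of the channel gene *Trpm1* (−1.01 and −0.87), the melanosome transporter genes *Slc24a5* (−0.80 and −0.88) and *Oca2* (−0.85 and −0.84), the enzyme genes *Dct* (−0.73 and −0.70) and *Tyr* (−0.53 and −0.67), and *Mlana* (−0.52 and −0.59). *Mitf*, which codes for the master regulator of the pigment lineage, was at −0.42 (SE 0.0469, adjusted p = 1.71e-05) without IFNγ and −0.53 (SE 0.0469, adjusted p = 2.14e-06) with it. In both comparisons *Rab38*, *Rab32*, *Vps16*, *Hps3*, *Vps39* and *Rab27a* had differences of −0.42 or lower.

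*Mc1r*, the melanocortin receptor gene, was the pigment gene that rose, by 0.22 (adjusted p = 0.0373) and 0.25 (adjusted p = 0.0172). Its call without IFNγ failed without untreated NTC replicate 1, 0.16 (adjusted p = 0.153), or 3, 0.24 (adjusted p = 0.0507), and without untreated DKO replicate 1, 0.19 (adjusted p = 0.11), or 3, 0.18 (adjusted p = 0.136), as it did when lowly expressed genes were kept, 0.22 (adjusted p = 0.065). With IFNγ it failed without treated NTC replicate 2, 0.20 (adjusted p = 0.0755), or treated DKO replicate 2, 0.17 (adjusted p = 0.0792).

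Lysosome genes were the next reference, since melanosomes and lysosomes share much of the machinery. Of 24, 11 were lower without IFNγ (45.8%, against 19.4% of all genes) and 10 with it (41.7%, against 23.9%). In limma none was higher (against 17% and 19.5% of all genes), and 0 were at an unadjusted p under 0.05 either. At that unadjusted p 12 of the 24 were lower in each comparison, against 23.7% and 27.7% of all genes. Lower in both were 8 (33.3%, against 15% of all genes), and the list had medians of −0.12 and −0.10. Under equal totals with IFNγ 8 of that list were higher and 8 lower (33.3% each, against 28.1% and 15% of all genes). Its split into higher and lower there depends on scaling, as that of all genes does. *Ctsa* (−0.59 and −0.52), *Ctsl* (−0.33 and −0.31) and *Npc2* (−0.30 and −0.24) were lower in both, *Mcoln1* was at −0.45 without IFNγ, and *Gla* (−0.33) was lower with it. Of coat genes of other routes (AP-2, clathrin, retromer, COPI and COPII), 17 of 18 were tested, with *Copg1* not analysed here. They gave 1 higher and 2 lower without IFNγ (5.88% and 11.8%, against 17% and 19.4% of all genes). With it 1 was higher and 4 were lower (5.88% and 23.5%, against 19.5% and 23.9%). In both comparisons 2 were lower (11.8%, against 15% of all genes), and the medians were 0.0050 and −0.077. Under equal totals 4 were higher and 0 lower without IFNγ (against 22.8% and 14.8% of all genes), and 4 higher and 1 lower with it (against 28.1% and 15%). The largest coat difference was that of the retromer gene *Vps35* with IFNγ, −0.35 (SE 0.0661, adjusted p = 0.000961).

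Further genes of the melanosome route that are not members were mixed. Of 47 listed, 38 were tested. Without IFNγ 10 were higher and 8 lower (26.3% and 21.1%, against 17% and 19.4% of all genes). With it 4 were higher and 11 lower (10.5% and 28.9%, against 19.5% and 23.9%). In both comparisons 5 were lower (13.2%, against 15% of all genes), and the medians were −0.039 and −0.063. Under equal totals these calls were 12 higher and 5 lower without IFNγ (against 22.8% and 14.8% of all genes), and 10 higher and 6 lower with it (against 28.1% and 15%). *Bloc1s6*, the pallidin subunit of BLOC-1, was lower in both comparisons (−0.35 and −0.52), as was the early endosome gene *Rab5b* (−0.40 and −0.48). *Sytl4*, which codes for a Rab27 effector of secretion, was higher in both (0.81 and 0.59). *Vamp3* was higher without IFNγ (0.44), and *Rab17* (−0.59) and *Ap1s2* (−0.40) were lower with it. The plot of both genotype differences for all genes places the members among these lists.

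**Figure D4:**
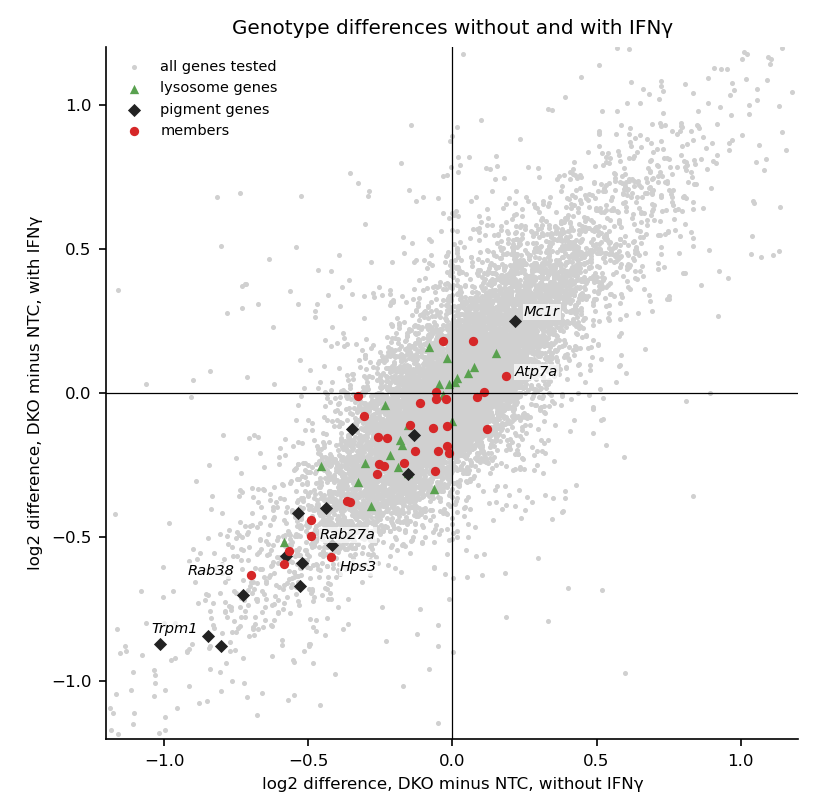
Log2 difference (DKO minus NTC) without IFNγ on the horizontal axis and with IFNγ on the vertical axis, with all 11663 tested genes in grey and members, pigment genes and lysosome genes in colour; 89 genes lie outside the axes. Of the members 27 of 34 are negative on both axes, as are 13 of 14 pigment genes and 15 of 24 lysosome genes.

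The remaining comparisons ask how the members respond to IFNγ and whether that response differs between genotypes. The treatment was visible in both genotypes: *Gbp2* rose by 2.83 (SE 0.113, adjusted p = 1.53e-09) in NTC and 2.55 (SE 0.113, adjusted p = 6.03e-09) in DKO cells, and *Irf1*, *B2m* and *Tap1* rose in both as well. In NTC cells 6 members were higher with IFNγ (17.6%, against 7.31% of all tested genes) and none was lower (against 4.78% of all genes); limma gave 14 higher (41.2%, against 18.7% of all genes) and 2 lower (5.88%, against 13.1%) at an unadjusted p under 0.05. The median of the members was 0.095 and that of all genes 0.019. *Vps41* rose by 0.24 (adjusted p = 0.0242), *Atp7a* by 0.23 (adjusted p = 0.0225), *Rab27a* by 0.20 (adjusted p = 0.0145), *Hps3* by 0.19 (adjusted p = 0.0463), *Ap1g1* by 0.19 (adjusted p = 0.042) and *Cd63* by 0.19 (adjusted p = 0.0152). The count rests on single libraries, as does that of all genes. It dropped to 0 when replicate 2 or replicate 3 of either NTC condition was left out. Calls over all genes, in either direction, then fell from 1411 to between 317 and 394. The member count reached 10 and 11 without treated DKO replicates 2 and 3, where calls over all genes were 2023 and 1952. These DKO libraries enter through the shared estimate of the spread. Of all genes called, 60.5% were higher as deposited, 45.1% under equal totals and 46% with median-ratio scaling; 4 members were higher and 0 lower under either scaling (11.8% higher, against 4.5% of all genes higher and 5.48% lower under equal totals and 4.91% and 5.76% with median-ratio scaling), where the calls for *Hps3* and *Ap1g1* were lost. With the trend of GC content and length removed those for *Hps3*, *Ap1g1*, *Vps41* (0.15, adjusted p = 0.0656) and *Atp7a* (0.15, adjusted p = 0.0757) were lost, and *Dtnbp1* (0.18, adjusted p = 0.00926) and *Mlph* (0.12, adjusted p = 0.0438) passed.

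In DKO cells 0 members passed the threshold in either direction with limma, where 0.677% of all genes were higher and 0.103% lower, and at an unadjusted p under 0.05 7 were higher (20.6%, against 6.28% of all genes) and 0 lower (against 3.32%). The median was 0.046, against 0.0081 over all genes. The smallest adjusted p was that of *Rab27a* (0.20, adjusted p = 0.0564), which passed without untreated NTC replicate 1, 0.20 (adjusted p = 0.0475), under equal totals, 0.20 (adjusted p = 0.0262), and with the trend of GC content and length removed, 0.18 (adjusted p = 0.0158). The test of the difference in response called 0 members, and 0.0343% of all genes in either direction; at an unadjusted p under 0.05 limma gave 1 member higher (2.94%, against 5.26% of all genes) and 2 lower (5.88%, against 6.22%), and the smallest adjusted p was 0.417. For *Rab38* the IFNγ response was 0.038 in NTC and 0.10 in DKO cells (difference 0.067, adjusted p = 0.601), and for *Rab32* it was 0.17 and 0.19 (difference 0.019, adjusted p = 0.943).

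Of the 14 pigment genes, 2 were higher with IFNγ in DKO cells (14.3%, against 0.677% of all tested genes). In NTC cells 7 were higher (50%, against 7.31%) and 1 was lower (7.14%, against 4.78%). The lower one, *Sox10* (−0.25, adjusted p = 0.0439), was at 0.013 (adjusted p = 0.898) with the trend of GC content and length removed, and its adjusted p was between 0.0501 and 0.138 without any 1 of 9 libraries (all but untreated DKO replicate 1 and treated DKO replicates 2 and 3), at differences between −0.28 and −0.22. In DKO cells *Trpm1* rose by 0.38 (adjusted p = 0.00106) and *Pmel* by 0.20 (adjusted p = 0.038). The call for *Pmel* was lost under equal totals, 0.21 (adjusted p = 0.0537), with median-ratio scaling, with no filter on low values and in the 6 DKO libraries alone, and its adjusted p was between 0.0594 and 0.179 without any 1 of untreated NTC replicates 2 and 3, treated NTC replicate 1, untreated DKO replicates 1, 2 and 3 and treated DKO replicates 1 and 2, at differences of 0.17 to 0.21.

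These values are shares of RNA, so a lower TPM does not say that a cell has less of the protein, and protein, melanosomes and pigment were not analysed here. Members were not drawn at random, and several are subunits of 1 complex, so their counts are a description. The median SD between replicates over tested genes was 0.0715 (log2) in untreated NTC, 0.0789 in treated NTC, 0.0690 in untreated DKO and 0.0934 in treated DKO libraries.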

How the data were processed

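RNA-seq was made from poly(A)-selected, unstranded, paired-end libraries of 12 samples, 3 per condition. The authors deposited TPM, estimated with RSEM 1.2.4 and Bowtie, with unaligned reads passed to TopHat (version written as 20.8b in the submitters' processing notes), on the mouse genome mm10 (GRCm38). TPM keep no depth, so precision came from the spread between replicates.

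A gene was kept where 3 or more libraries reached 1 TPM, which left 11663 of 23022. On log2(TPM + 1), limma 3.58.1 (R 4.3.3) fitted the mean of each condition, its prior variance tied to expression level, with Benjamini-Hochberg adjustment over all genes kept and a threshold of 0.05. The plan for count data was replaced by this one because the values are TPM. Comparisons were DKO against NTC without and with IFNγ, IFNγ against untreated in each genotype, and the difference in response. For single genes an exact two-sided permutation test within treatments (400 arrangements) was run. The fit was tested on simulated data with known differences.

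The members and all lists (other pathway, pigment, lysosome, other coat, marker, IFNγ response and *Mbnl* genes) were chosen with earlier results of these data known. Values in every library are given for members past the threshold in both genotype comparisons, with the same sign and groups that do not overlap, and for up to 3 others by largest difference. Of other lists up to 6 genes with the largest difference past the threshold are named. Coordinates, exon overlaps, GC content and length are from GENCODE M21 (22251 of 23022 genes matched, 96.7%), promoters from RefSeq (GRCm38.p6). Alternatives were equal totals over the listed genes, median-ratio scaling, a fit of only the 6 libraries compared, removal of a trend with GC content and length (alone and with a replicate block), the block by itself, fits without 1 library, a filter-free fit and a pseudocount of 0.1. No 2 libraries were identical (highest correlation 0.996). Figures were drawn with matplotlib 3.10.9 and tables read with pandas 2.3.3 and numpy 2.4.6 in Python 3.11.15.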

Additional observations from a re-analysis of the deposited data

Results flagged for a closer look

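Among the tested genes of the lists used here, markers aside, 3 were picked, and none of them is a member. *B2m* was picked because the test of a change in its genotype difference with IFNγ passed, so that pass is not a separate result. *Rab9* and *Tap1* were picked because all DKO libraries lay above NTC libraries without IFNγ and below them with it. For these genes the test of that change did not pass. *Rab9*, which codes for a late endosomal GTPase, measured 16.5, 16.3 and 15.5 TPM across NTC against 19.2, 17.7 and 20.9 TPM across DKO libraries when untreated, all DKO above all NTC, and 19.8, 21.5 and 20.9 TPM against 18.7, 17.3 and 16.6 TPM when treated, all DKO below all NTC. Its limma differences were 0.24 (adjusted p = 0.0124) and −0.23 (adjusted p = 0.0149). Tested against each other, they differed by −0.47 (adjusted p = 0.195). Without untreated NTC replicate 3 the first was 0.22 (adjusted p = 0.0513) and without untreated DKO replicate 3 0.19 (adjusted p = 0.0645); without treated NTC replicate 2 the second was −0.20 (adjusted p = 0.0555) and without treated DKO replicate 3 −0.19 (adjusted p = 0.0515). The second call was also lost under equal totals, −0.15 (adjusted p = 0.0895), and with the trend of GC content and length removed, −0.11 (adjusted p = 0.197).

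*B2m*, the light chain of MHC class I, was lower in DKO cells at both treatments (−0.23 and −0.86), with a difference between them of −0.63 (adjusted p = 0.0256). That adjusted p was between 0.0511 and 0.0960 without any 1 of untreated NTC replicates 1, 2 and 3, treated NTC replicates 2 and 3, untreated DKO replicates 2 and 3 and treated DKO replicate 1, with differences between −0.66 and −0.59. *Tap1*, a peptide transporter subunit gene, had DKO above NTC libraries without IFNγ (0.30, adjusted p = 0.0344) and below with it (−0.57, adjusted p = 0.000586), and a difference between them of −0.87 (adjusted p = 0.0709). The first of these calls failed without untreated NTC replicate 1 (adjusted p = 0.0915), 2 (0.0733) or 3 (0.0525) and untreated DKO replicate 1 (0.134) or 3 (0.0741), at differences between 0.23 and 0.32, and in the 6 untreated libraries alone, 0.30 (adjusted p = 0.0737). With the trend of GC content and length removed the difference between the effects passed, −0.96 (adjusted p = 0.0331).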

How the results depend on the processing

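Of 37 member calls in the genotype comparisons, 27 were kept under every alternative, 7 were lost under at least 1 of 8 alternatives that keep all libraries, 8 were lost in at least 1 of 12 fits without 1 library, and 0 of the lost calls reversed. Members lower in both comparisons numbered 14, between 12 and 16 over the alternatives and between 12 and 14 without 1 library. Over all genes the calls were 4247 without IFNγ (4063 to 4853, and 3430 to 4475 without 1 library), 5053 with it (4252 to 5029, and 4238 to 5113), and 91 for IFNγ in DKO cells (71 to 124, and 68 to 109). For IFNγ in NTC cells 1411 genes became 897 with no filter on low values, where more genes are tested, 597 after removing a trend with GC content and length, 440 with that trend removed and the replicate block, and 317 to 2023 without 1 library. The difference in response had 4 genes, 10 with no filter, 2 with the replicate block and 0 to 7 without 1 library. Members higher in DKO cells without IFNγ numbered 1, and 2 in the 6 libraries alone, under equal totals and with the trend removed, with or without the replicate block, and 0 to 1 without 1 library; with IFNγ 0 became 1 under equal totals and with the trend removed. Members higher with IFNγ in NTC cells were 6, 3 with the trend removed and the replicate block, and 0 to 11 without 1 library, and those lower were 0, and 0 to 1 without 1 library. Members higher with IFNγ in DKO cells were 0, and 1 under equal totals and with the trend removed, with or without the replicate block, and 0 to 1 without 1 library. The members' median difference without IFNγ moved from −0.14 to −0.089 under equal totals, and with IFNγ from −0.17 to −0.087 under equal totals and −0.22 with the trend removed, with or without the replicate block. With the trend removed *Sox10* with IFNγ in NTC cells went from −0.25 to 0.013. The difference of DKO from NTC cells in *Tfeb* with IFNγ, which was not called, went from 0.052 to −0.20 with the trend removed (adjusted p = 0.0666, or 0.0494 in the same fit with the replicate block). The cause of these shifts was not tested.

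Replicate numbers share only a number: of 12 correlations between the deviations of same-numbered libraries (−0.18 to 0.12), 2 were over 0.1, and in 2 of 12 a library correlated best with its own number. With the replicate block the calls were 4063 and 4899 for genotype, 1118 and 75 for IFNγ and 2 for the difference, and 17 and 16 members were lower, 13 in both. Genotype calls with IFNγ lost under it were those of *Bloc1s1* (−0.20, adjusted p = 0.0589), *Vps18* (−0.16, adjusted p = 0.0698) and *Myo5a* (−0.12, adjusted p = 0.0566). That of *Vps41* was lost when the block was added to removal of the GC content and length trend, −0.11 (adjusted p = 0.0734). TPM hold no depth, so the counting error of low members such as *Hps6* was not estimated.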

Other observations

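For some pairs of subunits of 1 complex the RNA ratio differed between genotypes, and for others it was close. The ratio of mean TPM of *Vps16* to *Vps33a*, whose proteins bind each other in HOPS, was 1.47 in untreated and 1.45 in treated NTC cells, and 1.01 in untreated and 0.947 in treated DKO cells. For *Vps39* to *Vps41*, the HOPS-specific pair, it was 0.785 and 0.694 in NTC and 0.557 and 0.587 in DKO cells. For *Hps3* to *Hps5* of BLOC-2 it was 1.29 and 1.38 in NTC and 0.996 and 0.934 in DKO cells. Close ratios were those of *Hps1* to *Hps4* of BLOC-3, 1.47 and 1.33 in NTC and 1.42 and 1.41 in DKO cells, and of *Ap3m1* to *Ap3s2* of AP-3, 1.24 and 1.3 in NTC and 1.21 and 1.23 in DKO cells. These pairs were chosen after their values were seen, and the ratios are a description without a test.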
